A study of Mus musculus with 6 samples.

Results

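Sestrins and their partners tell the kinase complex mTORC1 whether amino acids are at hand. They were examined here in mouse bone marrow-derived dendritic cells, antigen-presenting cells grown in culture from bone marrow. The 10 genes Sesn1, Sesn2, Sesn3, Ddit4, Mtor, Rptor, Depdc5, Tsc1, Tsc2 and Rheb were chosen by symbol, with earlier results of these data known. They are 10 of the 55740 gene models in the deposited table. For 6 h, cells from C57BL/6J mice received 18 mM lysine (3 samples) or, as the control, phosphate-buffered saline (PBS, 3 samples), and their RNA was then sequenced. No genetic change was named for either group, and neither the age of the mice nor the growth factors of the culture was stated. Because nothing says that the samples of a group came from separate cultures or animals, a p-value here reflects the spread among these libraries, possibly a technical one.

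mTORC1 promotes protein synthesis and growth when it is held on the lysosome by the Rag GTPases and switched on there by the small GTPase Rheb. Amino acids act through the Rag arm: when leucine is scarce, Sestrin2 binds the GATOR2 complex, which leaves the GATOR1 complex free to turn the Rag GTPases off. Stress and growth factors act through the other arm, in which the TSC complex turns Rheb off and REDD1, the product of Ddit4, favours the TSC complex. Sestrin genes are also known as targets of stress factors, Sesn1 and Sesn2 of p53, Sesn2 of ATF4 and Sesn3 of FoxO proteins. All values here are RNA levels, and the activity of mTORC1 was not measured.

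Levels were deposited as TPM, which scales reads by transcript length and library total. With lysine, Sesn2 and Ddit4 rose about as far as each other, while Sesn1 fell and Sesn3 did not pass the test. In the TSC arm Tsc1 and Rheb rose and Tsc2 did not pass. Rptor, the scaffold of mTORC1, fell, and neither Mtor itself nor Depdc5, a GATOR1 subunit, passed the test. Thus 4 of the 10 genes were higher, 2 were lower and 4 did not pass at an adjusted p under 0.05. Over all 12539 genes tested 55.1% were called, 25.8% higher and 29.3% lower, so the number of calls among the 10 genes is near the background. The 2 groups did not overlap for 6 of the 10 genes, against 63.4% of all genes tested. The median log2 difference of the 10 genes was 0.021, beside -0.050 for all genes tested.

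**Figure D1:**
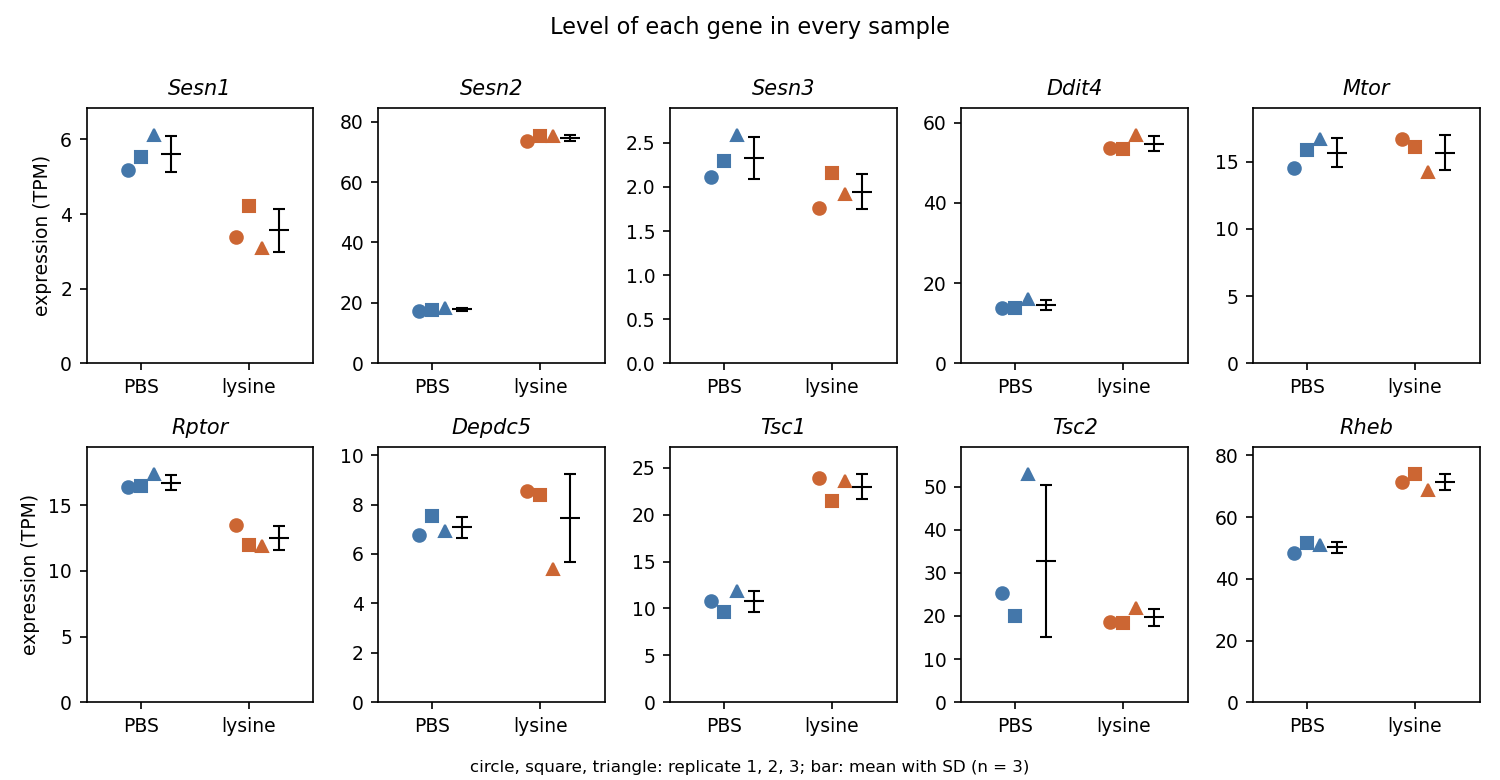
TPM, a level scaled by transcript length and library total, of the 10 genes in each of the 3 PBS and 3 lysine samples, with marker shapes for replicates 1 to 3 and bars for the mean and SD. Each axis starts at 0; Sesn2 lies between 17.41 and 18.43 TPM with PBS and between 73.45 and 75.17 TPM with lysine, and Tsc2 has a single PBS sample at 52.9 TPM.

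The depth of the libraries is unknown, since TPM keeps none. The number of gene models at 1 TPM or more ranged from 12277 to 12449 per sample. Of 14 dendritic cell markers 12 reached 1 TPM in at least 3 samples, among them Itgax at 347.43 to 385.03 TPM, whereas Cd209a and Xcr1 stayed below. The 14 genes summed to 4413.79 to 6742.82 TPM with PBS and 4781.43 to 6464.56 TPM with lysine, highest in replicate 3 of both groups, and 2 of the 12 were called higher and 1 lower. In the other lists no gene was called higher. Called lower were 4 of 9 tested macrophage genes, 3 of 4 monocyte genes, 1 of 2 each of the neutrophil, platelet and plasmacytoid genes, and the 1 mast cell gene tested. These counts stand beside 25.8% higher and 29.3% lower over all genes tested. The macrophage markers, 9 of 9 of which were detected, summed to 958.67 to 1041.18 TPM with PBS and 820.34 to 856.47 TPM with lysine. The monocyte markers, 4 of 5 detected, summed to 157.78 to 202.23 and 99.09 to 117.4 TPM. Neutrophil markers (2 of 9 detected) summed to 74.72 to 112 and 34.55 to 40.44 TPM, nearly all of it S100a8, while Elane was listed at 0 in all samples. Sums of the platelet list (2 of 4 detected, mostly Pf4) were 427.02 to 501.88 and 208.01 to 228.61 TPM. Plasmacytoid markers (2 of 4, mostly Bst2) summed to 192.54 to 200.69 and 121.19 to 127.76 TPM, with Siglech at 0 throughout. Mast cell and basophil markers (1 of 6, Cpa3) summed to 3.09 to 6.38 and 0.48 to 0.6 TPM, with Mcpt4 at 0 throughout. The B cell sum was at most 4.1 TPM (0 of 5 detected) and the erythroid sum at most 4.62 TPM (1 of 6, Hbb-bt). T and NK cell markers (4 of 6) summed to 25.38 TPM in PBS replicate 3 and 17.78 TPM in lysine replicate 3, but to between 2.36 and 8.92 TPM in the other 4 samples. The part of these shifts in the results below was not tested. A sum that rests mostly on 1 gene, as for S100a8, Pf4, Bst2 or Cpa3, does not show that cells of that type were present. Where they were, fewer cells of a type cannot be told apart from less RNA per cell.

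Sesn2 lies on chromosome 4 (132492032 to 132510501, minus strand, GRCm38; ENSMUSG00000028893) and encodes a leucine-binding sestrin. PBS replicates 1 to 3 held 17.41, 17.56 and 18.43 TPM of it, and lysine replicates 1 to 3 held 73.45, 75.13 and 75.17 TPM. The groups lay far apart and each was tight. The means were 17.8 ± 0.551 and 74.6 ± 0.982 TPM (SD, n = 3), a 4.19-fold rise with a log2 difference of 2.01 ± 0.056 (SE; adjusted p = 6.88e-06). On the log2 scale it was the 129th largest rise of the 12539 genes tested.

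Sesn1 (chromosome 10, 41809935 to 41908424, plus strand; ENSMUSG00000038332) encodes the sestrin first found as a p53 target. Its levels were 5.18, 5.53 and 6.12 TPM with PBS and 3.39, 4.21 and 3.09 TPM with lysine. The lowest PBS sample stood above the highest lysine sample. Sesn1 fell from 5.61 ± 0.475 to 3.56 ± 0.58 TPM (log2 difference -0.54 ± 0.13, adjusted p = 0.0111), and the call held in all 13 alternative settings (adjusted p from 0.00857 to 0.0394). Its direction was thus opposite to that of Sesn2 in the same samples.

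Sesn3 (chromosome 9, 14275067 to 14333101, plus strand; ENSMUSG00000032009), the sestrin gene known as a FoxO target, was the lowest of the 10 genes in both groups. It was at 2.11, 2.29 and 2.59 TPM with PBS and at 1.76, 2.16 and 1.92 TPM with lysine. The groups overlapped. Its log2 difference of -0.18 did not pass the test (95% confidence interval -0.47 to 0.12, adjusted p = 0.26).

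Because TPM is scaled by length, the sestrin levels can be added within a sample. Their sum was 24.7, 25.38 and 27.14 TPM with PBS and 78.6, 81.5 and 80.18 TPM with lysine. Sesn2 made up 70.5, 69.2 and 67.9% of that sum in the PBS samples and 93.4, 92.2 and 93.8% in the lysine samples. Over the same samples the share of Sesn1 went from between 20.97 and 22.5% to between 3.85 and 5.17%. The share of Sesn2 was higher in 3 of 3 lysine samples than in any PBS sample, by 23.9 percentage points on average. An exact two-sided permutation test gave p = 0.1, the smallest that 3 against 3 samples allow (Benjamini-Hochberg adjusted p = 0.1 over the 4 shares and ratios computed). Ratios were taken on TPM + 1, which makes them smaller than ratios of the TPM given above. On that scale the log2 ratio of Sesn2 to Sesn1 was 1.51 ± 0.063 with PBS and 4.06 ± 0.18 with lysine. That of Sesn2 to Sesn3 was 2.499 ± 0.065 and 4.68 ± 0.084 (SD, n = 3, exact permutation p = 0.1 for each ratio).

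**Figure D2:**
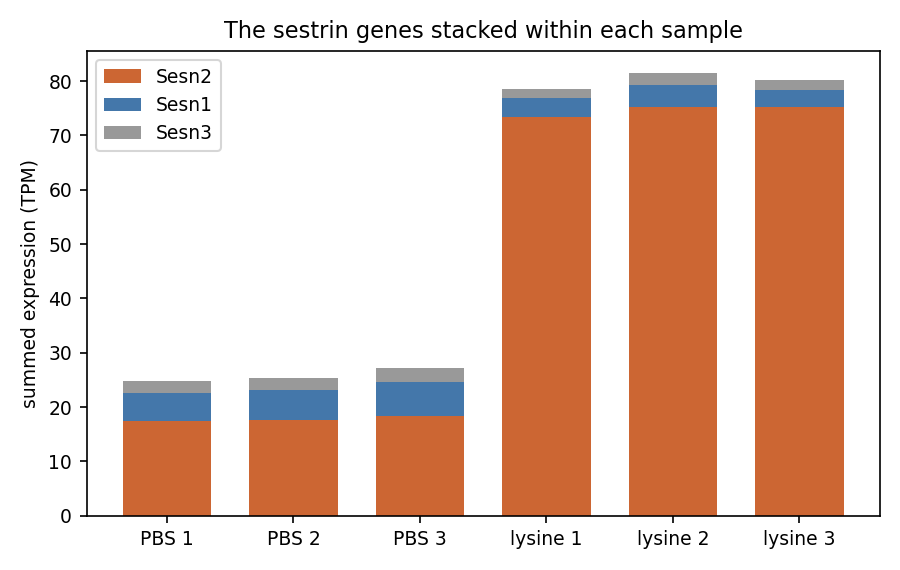
TPM of Sesn1, Sesn2 and Sesn3 stacked for each sample, on an axis that starts at 0. The columns reach 24.7 to 27.14 TPM with PBS and 78.6 to 81.5 TPM with lysine, and the Sesn2 segment grows while that of Sesn1 shrinks.

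Ddit4 encodes REDD1, a stress-induced inhibitor of mTORC1 that acts through the TSC complex (chromosome 10, 59949669 to 59951834, minus strand; ENSMUSG00000020108). It was at 13.77, 13.79 and 16.09 TPM with PBS and at 53.78, 53.57 and 56.95 TPM with lysine. The groups were far apart, with PBS replicate 3 a little above its fellows. The means of 14.6 ± 1.33 and 54.8 ± 1.89 TPM gave a 3.76-fold rise and a log2 difference of 1.85 ± 0.08 (adjusted p = 2.57e-05), the 175th largest rise. Its paralogue Ddit4l was low, from 0.44 to 2.34 TPM over all samples, and did not pass (adjusted p = 0.416).

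The promoter windows of the sestrin genes and of Ddit4 are printed here because Sesn2 and Ddit4 rose together while Sesn1 and Sesn3 did not. Each is the 250 bases before a start annotated by RefSeq on GRCm38.p6, read 5′ to 3′ on the strand of the gene; Sesn1 has 2 such starts. RefSeq starts differ from those of GENCODE, so that some windows lie partly or wholly within the gene spans given here. Capitals mark CCAAT or its reverse complement ATTGG and ACGTG or its reverse complement CACGT.
Sesn2, chr4:132510457-132510706, minus strand: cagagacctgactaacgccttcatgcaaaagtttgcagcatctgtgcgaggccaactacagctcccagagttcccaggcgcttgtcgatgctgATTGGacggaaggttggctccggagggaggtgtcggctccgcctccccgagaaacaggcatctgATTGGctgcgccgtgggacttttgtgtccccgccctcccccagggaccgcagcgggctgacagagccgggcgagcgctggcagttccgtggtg
Ddit4, chr10:59951771-59952020, minus strand: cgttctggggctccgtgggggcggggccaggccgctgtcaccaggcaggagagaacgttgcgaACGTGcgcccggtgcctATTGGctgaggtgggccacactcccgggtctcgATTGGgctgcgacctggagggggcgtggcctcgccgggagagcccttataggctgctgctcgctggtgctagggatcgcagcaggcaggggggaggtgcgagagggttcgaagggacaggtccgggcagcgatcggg
Sesn1, first start, chr10:41810324-41810573, plus strand: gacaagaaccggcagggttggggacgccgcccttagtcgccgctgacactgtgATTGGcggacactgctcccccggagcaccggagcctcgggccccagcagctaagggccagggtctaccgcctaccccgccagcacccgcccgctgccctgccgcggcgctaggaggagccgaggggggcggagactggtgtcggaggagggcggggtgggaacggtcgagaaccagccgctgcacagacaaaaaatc
Sesn1, second start, chr10:41887189-41887438, plus strand: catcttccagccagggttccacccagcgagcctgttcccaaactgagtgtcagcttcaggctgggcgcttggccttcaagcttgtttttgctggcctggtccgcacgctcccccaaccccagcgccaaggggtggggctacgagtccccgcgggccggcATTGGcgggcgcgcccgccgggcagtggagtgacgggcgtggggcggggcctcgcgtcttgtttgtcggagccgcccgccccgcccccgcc
Sesn3, chr9:14276051-14276300, plus strand: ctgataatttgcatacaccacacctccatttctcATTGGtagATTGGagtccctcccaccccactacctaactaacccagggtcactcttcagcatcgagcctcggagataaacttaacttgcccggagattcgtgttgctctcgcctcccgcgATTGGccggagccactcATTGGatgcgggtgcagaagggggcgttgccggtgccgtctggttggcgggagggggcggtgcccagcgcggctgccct

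Both strands of the 11 windows of the 10 genes were searched for 4 motifs. The CCAAT box (CCAAT), which binds the factor NF-Y, was in all 5 windows printed and in 6 of the 11, and in 33.8% of the 32851 windows of all genes. Sesn2 and Ddit4 each held it at 2 positions, Sesn3 at 4 and Mtor, whose window is not printed, also at 4. The core of the hypoxia response element (ACGTG) was in 3 of the 11 windows, those of Ddit4, Rptor and Rheb, and in 16.6% of all windows. The composite site of C/EBP and ATF factors (TGATGNAA) was in 0 of the 11 windows and in 3.45% of all, and a FoxO site (GTAAACA) in 0 of the 11 and in 3.17% of all. A match describes letters and is not evidence of binding, and a lack of one says only that these letters are not in these windows.

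Tsc1 and Tsc2 encode the subunits of the TSC complex, hamartin and tuberin, of which tuberin acts on Rheb. Tsc1 (chromosome 2, 28641228 to 28691167, plus strand; ENSMUSG00000026812) was at 10.79, 9.63 and 11.81 TPM with PBS and at 23.92, 21.46 and 23.6 TPM with lysine. The groups were well apart. It rose 2.14-fold, from 10.7 ± 1.09 to 23.0 ± 1.34 TPM (log2 difference 1.03 ± 0.095, adjusted p = 0.000249).

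Tsc2 (chromosome 17, 24595816 to 24632630, minus strand; ENSMUSG00000002496) was at 25.43, 20.08 and 52.9 TPM with PBS and at 18.68, 18.4 and 21.94 TPM with lysine. PBS replicate 3 stood apart and the groups overlapped. The log2 difference was -0.59 (95% confidence interval -1.38 to 0.19, adjusted p = 0.169), and without PBS replicate 3 it was -0.20 (adjusted p = 0.271, within a range of 0.0567 to 0.310 over the 13 alternatives). Exons of Tsc2 share 693 bases, 7.2% of its exon bases, with Pkd1 on the opposite strand. No source states whether reads were counted by strand, so reads from these bases may not be told apart. Pkd1 was at 24.69 TPM in PBS replicate 3 against 19.36 and 15.56 TPM in the other PBS samples. In lysine replicates 1 to 3 it was at 17.11, 10.98 and 21.99 TPM. PBS replicate 3 also had the highest T and NK cell marker sum. The part of shared reads or of these cells in the Tsc2 value was not tested.

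The log2 ratio of Tsc1 to Tsc2 was -1.16, -0.99 and -2.07 in the PBS samples and 0.34, 0.21 and 0.10 in the lysine samples. This ratio, too, was taken on TPM + 1. Tsc1 was below Tsc2 in every PBS sample and above it in every lysine sample. The mean difference was 1.63 (exact permutation p = 0.1, the smallest possible) and 1.29 without PBS replicate 3. Tbc1d7, the third subunit of the complex, fell from 10.9 ± 1.30 to 5.29 ± 0.21 TPM (log2 difference -0.91 ± 0.11, adjusted p = 0.000639).

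Rheb encodes the GTPase that switches mTORC1 on at the lysosome (chromosome 5, 24802823 to 24842624, minus strand; ENSMUSG00000028945). It was at 48.26, 51.63 and 50.9 TPM with PBS and at 71.32, 73.97 and 68.74 TPM with lysine, without overlap. Rheb rose 1.42-fold (log2 difference 0.50 ± 0.058, adjusted p = 0.000629). Rhebl1, a related GTPase gene, was at 3.01 to 4.94 TPM over all samples and did not pass (adjusted p = 0.892).

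Mtor, the kinase itself (chromosome 4, 148448611 to 148557683, plus strand; ENSMUSG00000028991), was at 14.53, 15.84 and 16.67 TPM with PBS and at 16.71, 16.12 and 14.21 TPM with lysine. Both group means were 15.7 TPM. The log2 difference had a 95% confidence interval of -0.22 to 0.22 (adjusted p = 0.994), and its sign depended on the scaling, at 0.046 with median-of-ratios scaling and 0.018 with quantile normalization.

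Rptor (chromosome 11, 119602905 to 119899576, plus strand; ENSMUSG00000025583) encodes Raptor, which brings substrates to mTORC1 and binds the Rag GTPases. It was at 16.37, 16.46 and 17.39 TPM with PBS and at 13.54, 12.01 and 11.94 TPM with lysine. All lysine samples were below all PBS samples. The fall from 16.7 ± 0.565 to 12.5 ± 0.904 TPM gave a log2 difference of -0.40 ± 0.08 (adjusted p = 0.00589). An antisense RNA, Rptoros, shares 84 bases with Rptor exons and was at no more than 0.56 TPM.

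Depdc5 encodes the largest GATOR1 subunit, which acts with its partners on the Rag GTPases (chromosome 5, 32863701 to 32994236, plus strand; ENSMUSG00000037426). It was at 6.76, 7.54 and 6.92 TPM with PBS and at 8.56, 8.4 and 5.39 TPM with lysine. Lysine replicates 1 and 2 were above all PBS samples and replicate 3 was below them. Its log2 difference of 0.043 did not pass (95% confidence interval -0.36 to 0.45, adjusted p = 0.848). Without lysine replicate 3 the difference was 0.23 (adjusted p = 0.0848), without lysine replicate 1 it was -0.058 and without lysine replicate 2 it was -0.046 (adjusted p from 0.0848 to 0.957 over the 13 alternatives).

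**Figure D3:**
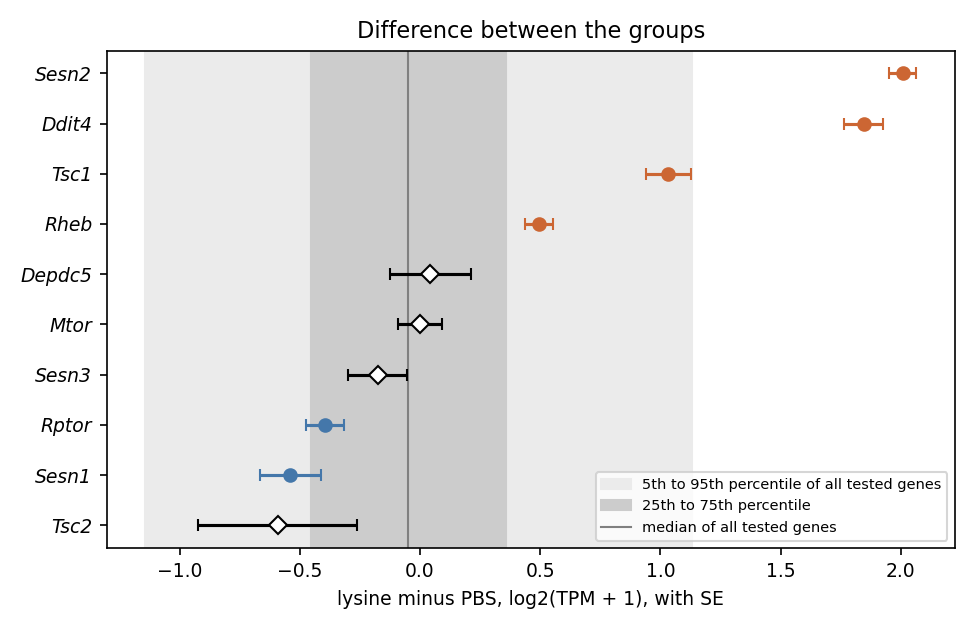
Log2(TPM + 1) with lysine minus that with PBS for the 10 genes, with the SE of the limma fit; filled circles passed at an adjusted p under 0.05 and open diamonds did not. Sesn2 at 2.01 and Ddit4 at 1.85 lie beyond the 95th percentile of all tested genes (1.13), and the others lie between the 5th percentile (-1.14) and the 95th.

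The order of levels changed with these shifts. Among the PBS samples Rheb was the highest by mean, followed by Tsc2, Sesn2, Rptor, Mtor, Ddit4, Tsc1, Depdc5, Sesn1 and Sesn3. Neighbours whose ranges overlapped were Rheb and Tsc2, Rptor and Mtor, and Mtor and Ddit4. Among the lysine samples Sesn2 was the highest by mean, followed by Rheb, Ddit4, Tsc1, Tsc2, Mtor, Rptor, Depdc5, Sesn1 and Sesn3. There the ranges of Sesn2 and Rheb overlapped, as did those of Tsc1 and Tsc2.

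The genes most like Sesn2 in pattern were Atf4, the transcription factor gene of the amino acid response, the folliculin partner gene Fnip2 and the gene Bbc3 of a pro-apoptotic protein. Their root mean square distances from Sesn2 were 0.043, 0.061 and 0.062 log2 units over the 6 samples, among 8623 candidate genes. Nearest to Ddit4 were the chromatin remodeller gene Chd2 (0.059), the clock gene Per1 (0.063) and Rassf1 (0.079), which encodes a Ras-association domain protein. Near Sesn1 were the exonuclease gene Pde12 (0.054) and the sorting receptor gene Sort1 (0.058). For Sesn3 they were Lrrc40 (0.019), the SNARE gene Bnip1 (0.020) and Tln1 (0.033), which encodes the integrin-linked protein talin. These are among the smallest distances found, and they carry no test.

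The wider pathway was followed through 84 further genes on 12 lists, chosen with earlier results of these data known. Each list count below is to be read beside the shares of all genes tested, 25.8% higher and 29.3% lower. Of the 84 genes, 78 were tested. There 28 were higher and 17 lower, which is 35.9% and 21.8% beside 25.8% and 29.3% of all genes tested, at a median log2 difference of 0.032. The count of lower calls fell from 17 to 11 without PBS replicate 1, to 10 without PBS replicate 2 and to 10 without lysine replicate 2. Of the 45 calls in both directions 32 were lost in none of the 13 alternative settings in which they were tested. Of these, Wdr59 was not tested under the filter of 5 TPM. Of the 33 tested genes that did not pass, 14 gained a call in at least 1 alternative.

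Of the 12 lists, only that of the folliculin complex had all its tested genes called in the same direction. This complex lets the Rag GTPases signal to a subset of mTORC1 substrates. All 3 of its genes were higher, beside 25.8% of all genes tested, with a median log2 difference of 1.57. The list was chosen with earlier results of these data known. Flcn was at 32.27 to 36.42 TPM with PBS and 102.88 to 108.68 TPM with lysine (adjusted p = 2.43e-05). Fnip1 rose from 15.8 ± 0.707 to 48.6 ± 3.16 TPM and Fnip2 from 35.3 ± 3.31 to 139.9 ± 1.20 TPM (adjusted p = 3.08e-05 and 2.03e-05).

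Among 8 tested genes of the Rag GTPases and of Ragulator, the scaffold that anchors them to the lysosome, 4 were higher, 2 lower and 2 did not pass. Rragc rose from 89.6 ± 4.12 to 161 ± 6.54 TPM and Rragd, from which the alternative partner RagD is made, from 1.94 ± 0.446 to 7.36 ± 1.39 TPM. The Ragulator subunits split. Lamtor3 rose from 145 ± 6.54 to 370 ± 20.5 TPM (log2 difference 1.34 ± 0.063, adjusted p = 3e-05), and Lamtor1, the subunit that carries the lipid anchor, fell from 189.5 ± 3.84 to 142 ± 12.4 TPM (log2 difference -0.42 ± 0.072, adjusted p = 0.00294). Lamtor2 was lower as well (-0.18 on the log2 scale), but 6 of 13 alternatives did not keep that call (adjusted p 0.0648 to 0.0968), 4 of which each left out a library, namely PBS replicates 1, 2 and 3 and lysine replicate 2. Rraga, the main partner of RagC, was at 64.89, 67.63 and 66.92 TPM with PBS and 64.51, 66.6 and 58.47 TPM with lysine and did not pass (adjusted p = 0.375; named after its values were seen). Rragb was below the filter in all samples.

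Of the GATOR and KICSTOR genes tested, 1 of 3 was lower in GATOR1, 2 of 3 in KICSTOR and 2 of 5 in GATOR2. In GATOR2 1 gene was higher, and in GATOR1 and KICSTOR 0 were. Over all genes tested 29.3% were lower and 25.8% higher. In GATOR1, which turns the Rag GTPases off, Nprl3 fell from 13.6 ± 0.62 to 8.13 ± 0.45 TPM (log2 difference -0.68 ± 0.081, adjusted p = 0.000691), and neither Depdc5 nor Nprl2 passed. In KICSTOR, the complex that holds GATOR1 at the lysosome, Kptn fell from 6.72 ± 1.10 to 1.91 ± 0.49 TPM (log2 difference -1.41 ± 0.17, adjusted p = 0.000777). In GATOR2, the complex that sestrins bind, 2 of 5 fell, 1 rose and 2 did not pass. Sec13, which also serves in vesicle coats and nuclear pores, fell from 95.5 ± 1.63 to 72.2 ± 5.32 TPM. Wdr59 rose from 3.47 ± 0.218 to 4.94 ± 0.181 TPM (adjusted p = 0.0107). Wdr24 was lower by 0.29 on the log2 scale (adjusted p = 0.0437), but 7 of 13 alternatives lost the call (adjusted p 0.0506 to 0.132), 5 of which each left out a library, namely PBS replicates 1, 2 and 3 and lysine replicates 1 and 2.

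Of the other amino acid sensors and their regulators 2 of 9 tested were higher, 2 lower and 5 did not pass. Castor2, a paralogue of the arginine sensor gene Castor1, was lower (9.56 ± 0.569 to 6.68 ± 0.997 TPM, adjusted p = 0.0152). Without PBS replicate 1 its adjusted p was 0.0534. Castor1 itself, at 3.92 to 5.81 TPM with PBS and 3.15 to 3.75 TPM with lysine, did not pass (adjusted p = 0.116). Bmt2 encodes SAMTOR, a sensor of S-adenosylmethionine. It was lower (12.99 ± 2.01 to 9.59 ± 0.251 TPM, adjusted p = 0.0251), and the call was lost without the filter and without lysine replicate 1, 2 or 3 (adjusted p from 0.0551 to 0.0611). Slc38a9, the lysosomal arginine sensor, was at 8.19 to 8.88 TPM with PBS and 5.93 to 7.69 TPM with lysine. The groups did not overlap but the difference missed the threshold (adjusted p = 0.0601). It passed as lower without lysine replicate 1 (adjusted p = 0.0338). Sar1a, a coat GTPase related to the leucine sensor SAR1B, rose from 70.9 ± 2.45 to 117 ± 4.12 TPM (adjusted p = 0.00013). Lars, the leucyl-tRNA synthetase gene, was higher (24.6 ± 2.35 to 37.7 ± 6.99 TPM, adjusted p = 0.0147; 0.0501 without lysine replicate 1).

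**Figure D4:**
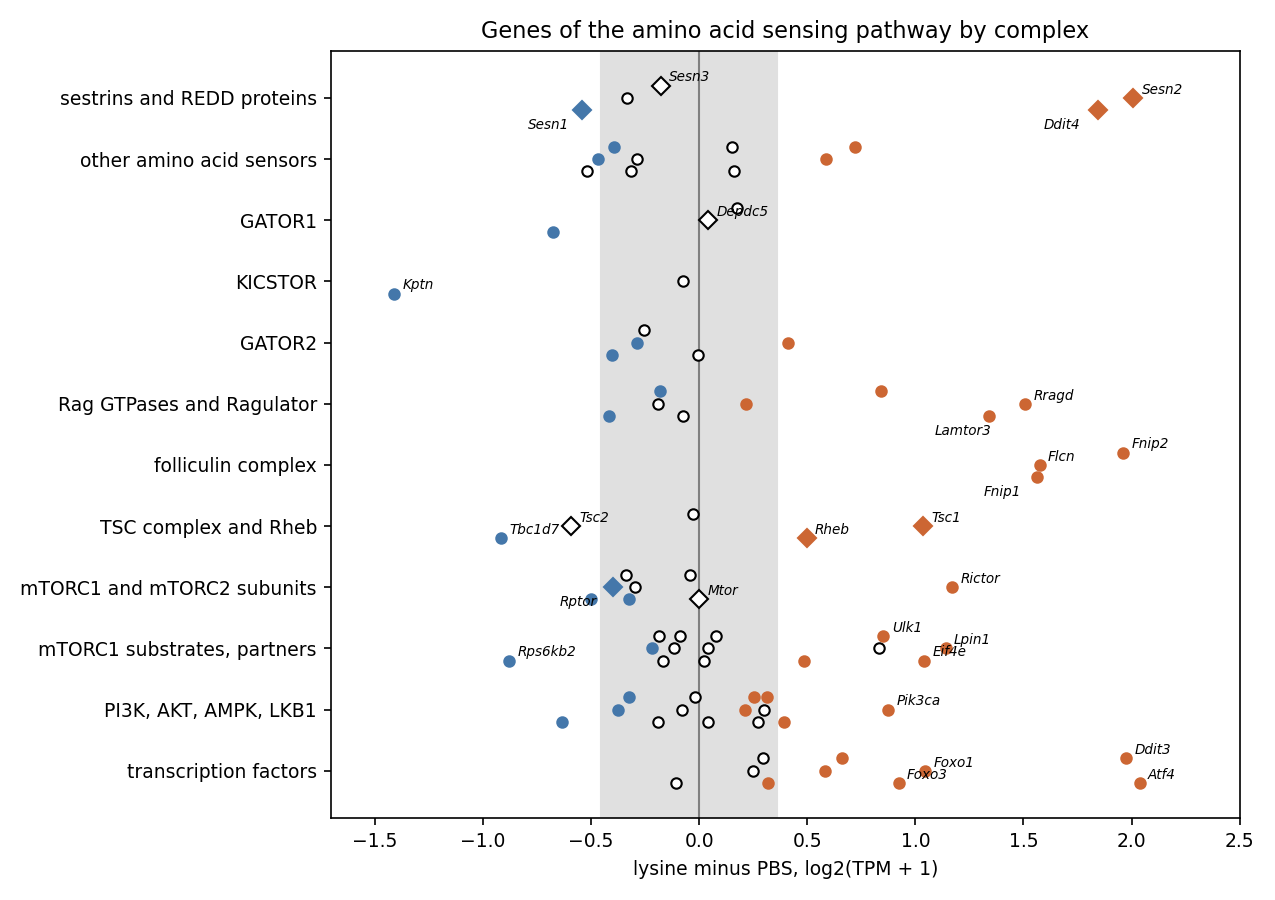
Log2(TPM + 1) with lysine minus that with PBS for tested genes of each complex or role; orange was called higher, blue lower and open symbols did not pass, with diamonds for the 10 genes described one by one. The grey band spans the 25th to the 75th percentile of all tested genes (-0.45 to 0.36), and all 3 folliculin complex genes lie to its right.

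Beside Mtor and Rptor, the list of mTORC1 and mTORC2 subunits held 6 further tested genes. Rictor, the scaffold of mTORC2, rose from 6.03 ± 0.266 to 14.9 ± 1.42 TPM (log2 difference 1.17 ± 0.096, adjusted p = 0.000164), against the direction of Rptor. Mlst8, a subunit of both complexes, and Akt1s1, an inhibitor within mTORC1, were lower (-0.50 and -0.32 on the log2 scale, adjusted p = 0.0365 and 0.043). The call of Mlst8 was lost in 6 of 13 alternatives (adjusted p from 0.0505 to 0.106) and that of Akt1s1 in 9 (0.0503 to 0.1). In both cases these included leaving out PBS replicate 2 or 3 or lysine replicate 1, 2 or 3.

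Among 14 tested genes of mTORC1 substrates and their partners, 8 missed the threshold, while 4 rose and 2 fell. The cap-binding factor gene Eif4e rose from 75.5 ± 5.62 to 157 ± 15.5 TPM, Lpin1, a phosphatase of lipid synthesis, from 6.58 ± 0.966 to 15.6 ± 1.004 TPM, and Ulk1, the kinase that starts autophagy, from 9.02 ± 1.51 to 17.0 ± 1.35 TPM (adjusted p = 0.000215, 0.000347 and 0.00154). The S6 kinase genes differed. Rps6kb1, named after its values were seen, was at 15.18 to 18.43 TPM with PBS and rose to 24.04 to 25.39 TPM with lysine (adjusted p = 0.00453). Rps6kb2 was at 13.87, 14.72 and 15.84 TPM with PBS and at 4.86, 6.81 and 12.89 TPM with lysine, and was called lower (adjusted p = 0.0426). It did not stand in 7 of 13 alternatives (adjusted p 0.051 to 0.109), such as when any of PBS replicates 1, 2 and 3 or lysine replicates 1 and 2 was left out. Rps6, the ribosomal protein that S6 kinases phosphorylate, fell from 1339 ± 62.0 to 1150.4 ± 20.6 TPM (adjusted p = 0.012).

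Upstream of the TSC complex, 6 of 15 tested genes of the PI3K, AKT, AMPK and LKB1 pathways were higher, 3 lower and 6 did not pass. The PI3K catalytic subunit gene Pik3ca rose from 12.7 ± 2.80 to 23.9 ± 3.87 TPM and Pdpk1, a kinase of AKT, from 12.5 ± 1.01 to 16.7 ± 0.622 TPM (adjusted p = 0.00602 and 0.00703). The other PI3K catalytic genes moved against Pik3ca. Pik3cb fell from 21.3 ± 1.11 to 16.8 ± 0.843 TPM (adjusted p = 0.0101). Pik3cg and Pik3cd, the forms typical of leukocytes, were lower by 0.38 and 0.63 on the log2 scale (adjusted p = 0.0264 and 0.0442). The call of Pik3cg was lost in 6 of 13 alternatives (adjusted p from 0.0547 to 0.0856), as when either of PBS replicates 1 and 2 or of lysine replicates 2 and 3 was left out. That of Pik3cd was lost in 7 (0.0556 to 0.126), as when any of PBS replicates 1, 2 and 3 or of lysine replicates 1 and 2 was left out.

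Of 10 transcription factor genes known to act on the sestrins or Ddit4, 7 were higher, 0 lower and 3 did not pass. That is 70% higher and 0% lower, beside 25.8% and 29.3% of all genes tested. The list was chosen with earlier results of these data known. Atf4 rose from 154.5 ± 6.16 to 637 ± 28.6 TPM, a log2 difference of 2.04 ± 0.057 (adjusted p = 6.88e-06) beside 2.01 for Sesn2 in the same samples. Ddit3, which encodes the stress factor CHOP, rose from 61.6 ± 5.23 to 245 ± 24.96 TPM, but a further model with its symbol was listed at 0, 283 and 361.58 TPM with PBS and at 0, 0 and 841.61 TPM with lysine, so that value is uncertain. Trp53, which encodes p53, rose 1.25-fold (adjusted p = 0.00187), and Nfe2l2, which encodes NRF2, 1.58-fold (adjusted p = 0.000326). Foxo1 rose from 2.66 ± 0.161 to 6.56 ± 0.567 TPM and Foxo3 from 12.7 ± 1.02 to 25.1 ± 2.68 TPM (adjusted p = 0.000349 and 0.000544), while Sesn3 did not pass. Hif1a, the hypoxia factor gene, did not pass either, at 136.4 to 160.86 TPM with PBS and 136.27 to 145.76 TPM with lysine (adjusted p = 0.271). Without PBS replicate 3 it passed as lower (adjusted p = 0.0462). Whether any of these factors acted on the sestrin genes or Ddit4 in these samples was not tested.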

How the data were processed

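The authors deposited TPM for 55740 gene models, quantified with RSEM per the design text; HISAT2, StringTie, edgeR and GRCm38.p6 are also named per the submitters' processing notes, without roles or versions. Since TPM is relative to a transcript's length and the library's total, depth and counting error are unknown, and abundant RNAs that rise push the rest down. Columns were matched to samples by group word (or K, the 1-letter code of lysine) and replicate number.

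The 12539 genes that reached 1 TPM in 3 or more samples entered limma 3.58.1 in R 4.3.3, with an intensity trend on log2(TPM + 1), a scale that understates changes of low genes; calls are Benjamini-Hochberg adjusted p under 0.05 over all of them. All 10 genes passed the filter. Shares were taken on TPM and log2 ratios on TPM + 1, and both were compared with exact permutation tests. Positions and overlaps came from GENCODE M21 and promoters from RefSeq, both on GRCm38.

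The 10 genes, the 12 pathway lists (94 entries, 1 of which, Kics2, matched no symbol in the table) and the 10 marker lists were chosen with earlier results of these data known. Beside the 10 genes, the text names up to 3 called genes per list by smallest adjusted p, called genes against their list's direction, 9 genes fixed by name, the most abundant gene of each marker list, and for the sestrin genes and Ddit4 the 3 nearest genes of at least 5 TPM. A few genes that this rule names are not reported here. Other names were chosen after their values were seen. The 13 alternatives were a replicate block, another pseudocount, 2 other filters, 2 other scalings, limma without the trend, and leaving out each sample.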

Additional observations from a re-analysis of the deposited data

How the results depend on the processing

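For the 10 genes, all 4 higher and both lower calls held in each of the 13 alternatives, and none of the other 4 genes gained a call; Sesn3 was not tested under the filter of 5 TPM. Leaving out a sample moved the log2 difference of Sesn2 between 1.99 and 2.03, of Ddit4 between 1.81 and 1.92, of Tsc1 between 0.96 and 1.10, of Rheb between 0.47 and 0.52, of Rptor between -0.45 and -0.37 and of Sesn1 between -0.64 and -0.46. Among the 78 further pathway genes, 17 were lower; there were 10 without the filter on low values, where more genes entered the adjustment, and 10 to 15 when a sample was left out (11 without PBS replicate 1, 10 without PBS replicate 2, 10 without lysine replicate 2; the cause was not tested). The replicate numbers share only a label: deviations from the group means of same-numbered samples correlated at 0.17, 0.092 and 0.25, and each sample correlated best with its own number, a hint from the data and not from the design. With the replicate block, 3396 genes were higher and 3943 lower, against 3231 and 3673 without it, the further pathway genes had 29 and 19, and the calls of the 10 genes did not change. Exact sign-flip permutation tests of the 3 ratios within replicate pairs gave p = 0.25, the smallest that 3 pairs allow; leaving out a sample, the smallest possible p was 0.2. The depth is unknown, so low genes such as Sesn3 carry an unstated counting error.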
